A study of Homo sapiens with 4 samples.

Results

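Of the 106179 transcripts in the deposited table, 1293 had a level above 0.1 CPM in both libraries from oxaliplatin-resistant cells and a count of 0 in both libraries from wild-type cells. These 1293 transcripts are described here. CPM is the library-scaled count, that is, the count divided by the total of its library, times 1000000. The transcripts were chosen by their measured counts in all 4 libraries, so the difference between the groups is a description and was not tested for them. The table holds 2 libraries of oxaliplatin-resistant cells and 2 of wild-type cells. Both groups are labelled HepG2, a human hepatocellular carcinoma line, and the labels give "none" as the treatment of all of them. Oxaliplatin is a platinum drug that binds DNA. The labels do not give the dose or the time used to select the resistant cells, nor whether replicate libraries are separate cultures, so spreads here may be technical. In RNA from whole cultures, fewer cells of a type and less RNA per cell cannot be told apart.

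The table lists noncoding transcripts, with only 123 of the 83166 mRNAs of the reference. Such transcripts come from genes with no protein product, as long intergenic noncoding RNAs (lincRNAs) and antisense RNAs do, or from protein-coding genes, where a retained intron or a skipped exon gives an RNA that is not annotated as coding. Many of them share most of their exons with an mRNA or with another noncoding transcript of the gene. A read inside a shared exon then cannot be given to 1 transcript, and a read that crosses a junction between exons often can. An estimated count of 0 therefore concerns the transcript as annotated, and its exons may still be read in another transcript.

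The totals of the libraries were 43473826 and 44063444 counts in resistant cells and 38113398 and 34898860 in wild type. A count of 0 allows up to 3 counts, which is 0.0787 and 0.0860 CPM in the wild-type libraries, for counting error only. Noncoding transcripts of most genes that define the labelled cell type had few or no counts. Of 12 hepatocyte genes with transcripts in the table, 8 had no count in any library, among them *AFP*, *TTR* and *SERPINA1*. *ALB*, the albumin gene, had 0 and 0 counts in resistant cells and 8 and 0 in wild type. *H19*, an imprinted fetal lncRNA, was at 137.0 and 116.0 CPM in resistant cells and at 170.2 and 235.0 CPM in wild type, and made up nearly all of the list. *KRT7*, a keratin of ductal and other epithelia, was at 218.0 and 202.0 CPM in resistant cells and 336.0 and 304.0 CPM in wild type, and *EGFR* at 2726 and 2058 CPM in resistant cells and 2159.8 and 1879 CPM in wild type. The other genes on the same list of non-hepatic epithelium had few or no counts. *KRT5* had 0 in every library. *KRT14* had 2 and 1 counts in resistant cells and 0 and 1 in wild type, and *TP63* 0 and 30 against 0 and 0. The highest fibroblast genes were *FN1*, at 103 and 83 CPM in resistant cells and 78.9 and 66.9 CPM in wild type, and *VIM*. *VIM* was at 71.9 and 63.1 CPM in resistant cells and 83.3 and 122 CPM in wild type. These sums hold noncoding transcripts, so they do not give the mRNA levels of the genes. None of the marker genes of hepatocytes, fibroblasts, endothelium, leukocytes or other epithelia had a resistant-only transcript. The share was 7.41% among all 12842 genes with a transcript above 0.1 CPM in both resistant libraries. Many of the marker genes had no count in any library and could not hold one. With so few genes, nothing is read from this about the cells.

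Sequences of 5 resistant-only transcripts and of 1 wild-type-only counterpart show what separates such a transcript from the rest of its locus. They come from GENCODE release 29 by transcript identifier, with GRCh38 coordinates, and run 5′ to 3′. The first 4 come from transcripts that lie mostly in exons of reference transcripts counted in wild type. The last 2 come from transcripts with no base in such exons. Lower case marks the exon before a junction and capitals the exon after it. For *AP3S1* and for the wild-type transcript of *AL390729.1*, capitals mark a whole middle exon, and the lower case after it is the next exon.
AL392086.3 ENST00000648995: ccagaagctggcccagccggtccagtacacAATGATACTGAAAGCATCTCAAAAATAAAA
AL390729.1 ENST00000422022, resistant-only: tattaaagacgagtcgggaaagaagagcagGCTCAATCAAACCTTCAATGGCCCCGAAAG
AL390729.1 ENST00000456651, wild-type-only: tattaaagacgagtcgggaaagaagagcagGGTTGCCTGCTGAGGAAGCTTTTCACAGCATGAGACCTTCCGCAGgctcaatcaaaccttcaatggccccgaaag
AP3S1 ENST00000395548: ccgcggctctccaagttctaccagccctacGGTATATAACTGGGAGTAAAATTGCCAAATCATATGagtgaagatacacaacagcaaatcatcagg
AL031599.1 ENST00000432694: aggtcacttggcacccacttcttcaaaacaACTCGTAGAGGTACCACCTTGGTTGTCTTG
SMC5-AS1 ENST00000594708: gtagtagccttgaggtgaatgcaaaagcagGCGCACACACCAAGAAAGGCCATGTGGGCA

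The *AL392086.3* junction joins exons 1 and 2 of 4 and spans chr10:6737599-6833672 on the plus strand. Both *AL390729.1* windows span chr1:112850398-112877759 on the plus strand. They end in the same exons, and the wild-type-only one holds a middle exon of 45 bases that the resistant-only one lacks. The *AP3S1* window spans chr5:115842077-115866699, plus strand, with a middle exon of 36 bases. The *AL031599.1* window spans chr1:172776098-173004311, plus strand, and the *SMC5-AS1* window chr9:70216392-70218344, minus strand.

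The resistant-only transcripts were 1.22% of the table and 3.39% of the 38191 transcripts above 0.1 CPM in both resistant libraries. With the groups exchanged, the same rule found 592 wild-type-only transcripts, 1.64% of the 36083 above 0.1 CPM in both wild-type libraries. Across all 42393 transcripts that passed the expression filter, the quasi-likelihood test of edgeR (Benjamini-Hochberg adjusted p under 0.05) called 0, a share of 0.0% (lowest adjusted p = 0.329). It gave 3283 at an unadjusted p under 0.05, and DESeq2 called 2261, or 5.33%. The rule used this contrast, so nothing is read from these counts about the 1293.

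Most of the resistant-only transcripts were low. Their mean over the resistant libraries ran from 0.114 to 1169 CPM, with a median of 1.60 CPM and quartiles of 0.583 and 5.36 CPM. The other 36898 transcripts above 0.1 CPM in both resistant libraries had a median of 3.63 CPM. The share at 0 in both wild-type libraries was 6.94% among transcripts at 0.1 to 0.3 CPM, 2.94% at 3 to 10 CPM and 1.07%, or 18 transcripts, above 100 CPM. Against the limit of 3 counts in each wild-type library, the mean in resistant cells was 1.39-fold to 14194-fold higher. This bound allows for counting error only, and not for differences between replicate libraries. The highest value, for *AP3S1*, is a mean of 8.33 and 2329 CPM. The bound was 10-fold or more for 863 transcripts, 100-fold or more for 236 and 1000-fold or more for 21. Together the 1293 held 1.38% and 1.45% of the counts of the resistant libraries, and the 10 highest of them held 44% and 38.9% of that.

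**Figure D1:**
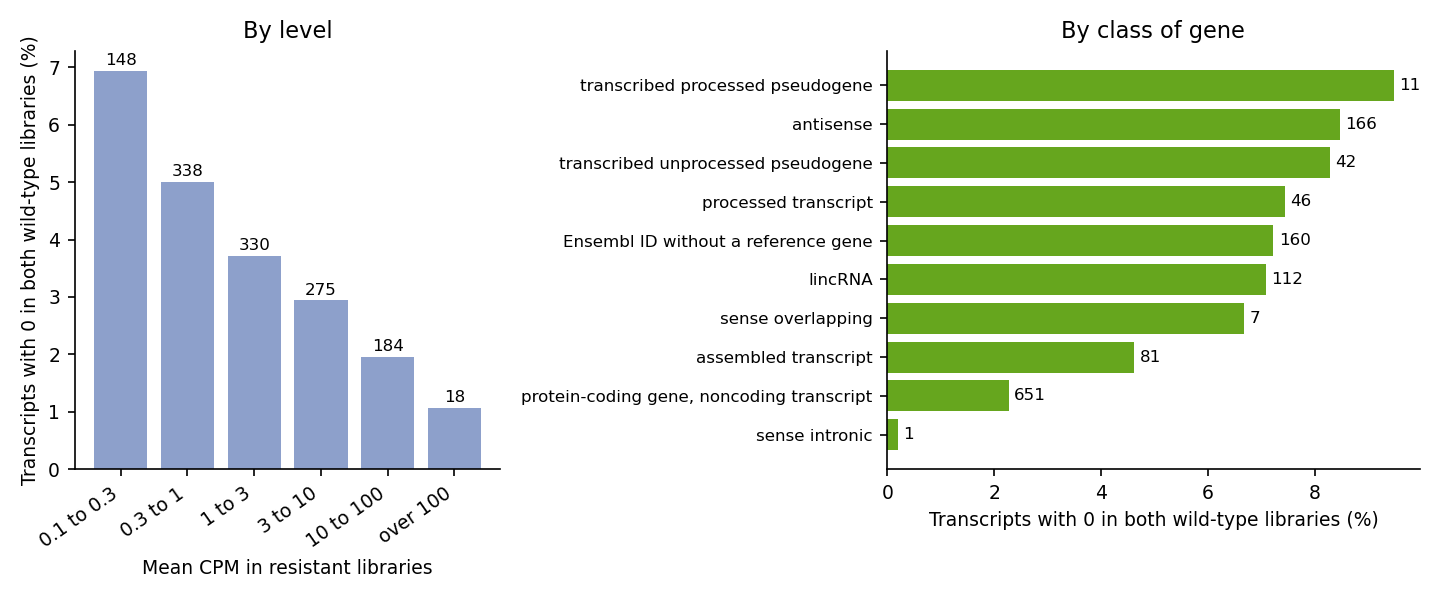
Share of transcripts above 0.1 CPM in both resistant libraries that had a count of 0 in both wild-type libraries, in percent, by mean CPM in resistant cells (left) and by class of gene, for classes with at least 100 such transcripts (right). Numbers on the bars are resistant-only transcripts; the share falls from 6.94% to 1.07% with level and is 2.27% for noncoding transcripts of protein-coding genes.

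Just inside the threshold were *ADCY3* ENST00000450524, with 7 and 5 counts in the resistant libraries, and *AL157884.2* ENST00000424177, with 11 and 5. Just outside it were *AL663074.1* ENST00000436642 with 4 and 5 counts, *SPATA6L* ENST00000451763 with 4 and 27, and *AL353768.1* ENST00000439872 with 4 and 34. In all, 162 members had a lower resistant value of at most 0.2 CPM. Another 65 transcripts above 0.1 CPM in both resistant libraries were kept out by a single wild-type count.

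The resistant libraries did not agree closely on the level of these transcripts. The higher library exceeded the lower by a median of 1.81-fold, against 1.47-fold for the other transcripts. A difference of 10-fold or more was seen for 74 of them, or 5.72%, against 2.50% of the others. The 2 sets were not matched for level, with medians of 1.60 CPM and 3.63 CPM, so these ratios are not a trait of the set alone. Neither library was the higher one throughout: 633 were higher in resistant replicate 1 and 660 in replicate 2. Absence from a single library was common in the whole table. Of the transcripts above 0.1 CPM in one resistant library, 10.3% (replicate 1) and 10.2% (replicate 2) had a count of 0 in the other, and in wild type 11.6% and 10.2% did.

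**Figure D2:**
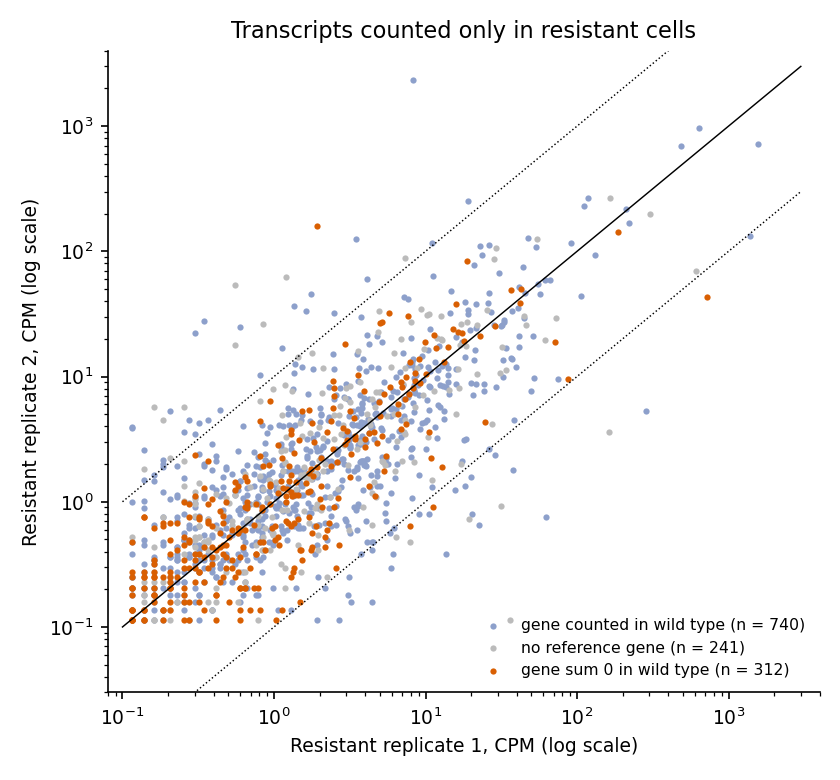
CPM of each of the 1293 resistant-only transcripts in resistant replicate 1 (x axis) and replicate 2 (y axis), both on log scales; the solid line marks equal values and the dotted lines a 10-fold difference. Orange points are the 312 transcripts whose gene had no count in wild type, and 74 points lie on or beyond the dotted lines.

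By class, noncoding transcripts of protein-coding genes were the largest group, with 651 of the 1293, or 50.3%. They were 75.1% of the 38191 transcripts above 0.1 CPM in both resistant libraries, so only 2.27% of them were resistant-only. Antisense genes gave 166 (8.47% of theirs), lincRNA genes 112 (7.08%), genes classed as processed transcripts 46 (7.43%) and transcribed unprocessed pseudogenes 42 (8.27%). A further 160 were Ensembl identifiers without a name in the reference (7.22%), and 81 were assembled transcripts (4.62%). Sense intronic RNAs gave 1 of 498. Classes also differed in level, with a median of 1.07 CPM for the antisense and 1.71 CPM for the protein-coding group. By transcript type, 503 were processed transcripts (38.9%, against 28.5% of the transcripts above 0.1 CPM in both resistant libraries) and 225 retained introns. Retained introns were 49.1% of the transcripts above 0.1 CPM in both resistant libraries and 17.4% of the resistant-only ones.

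The 1052 with a reference gene lay in 951 genes, of which 872 held 1, 62 held 2 and 17 held 3 or more. Every chromosome was represented except Y, which had 1 transcript above 0.1 CPM in both resistant libraries. Among the others, the share at 0 in wild type was lowest on chromosome 18, at 1.86%, and highest on chromosome 20, at 3.98%. Chromosome 1 held the most, with 114. That was 8.82% of the resistant-only transcripts, close to its 8.74% of those above 0.1 CPM in both resistant libraries. Genes with a sum of 0 in wild type were scattered. Ordered by position among the 17907 genes with a count, 290 of the 300 stood alone and the other 10 formed 5 neighbouring pairs, among them *ZNF613*, a zinc finger gene, with the antisense gene *ZNF350-AS1*.

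For 312 transcripts in 300 genes, 29.7% of those with a reference gene, the whole gene sum was also 0 in both wild-type libraries. In 175 of the 312 the gene has a single transcript in the table, so the sum adds nothing to the transcript. The share was 66.1% for lincRNA genes, 51.8% for antisense genes and 17.1% for protein-coding genes, whose sums leave out nearly all mRNAs. These 312 had a median of 0.851 CPM, against 2.01 CPM for the 740 whose gene was counted in wild type.

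The highest of the 312 belonged to protein-coding genes. *SELENOF*, which encodes a selenoprotein of the endoplasmic reticulum, had 31474 and 1898 counts in resistant cells for ENST00000469566, its only matched transcript in the table. *NKAIN3* ENST00000523367 had 8137 and 6300 counts, and *FAM83A* ENST00000521468 had 83 and 7005. The resistant libraries were close only for *NKAIN3*, 1.31-fold apart, and 16.8-fold and 83.3-fold apart for the others. *C2orf88*, which encodes a small anchoring protein of protein kinase A, had 812 and 3677 counts for ENST00000478197. *SNTB2*, a syntrophin gene, had 1868 and 2213 counts for ENST00000528525, and *ZSWIM5* had 3117 and 838 for ENST00000464588. *SNTB2* and *SELENOF* lay wholly inside exons of reference mRNAs, and *C2orf88* shared no base with an mRNA. *AC017002.6* ENST00000644013, a noncoding gene with 3768 and 419 counts, shared 297 of its 988 bases with *MIR4435-2HG*, which was counted in every library.

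*AL392086.3* ENST00000648995, whose junction is printed above, had 1826 and 1712 counts in resistant cells, 1.08-fold apart, and 0 in both wild-type libraries. All of its 614 bases lay in exons of other genes counted in wild type. It shared 211 bases with *LINP1*, a lncRNA known from repair of DNA breaks by end joining, and 403 with *LINC00707*, another lincRNA. The sum over *LINP1* was 149 and 118 counts in resistant cells and 133 and 183 in wild type. The sum over *LINC00707* was 32297 and 26365 in resistant cells and 16347 and 11703 in wild type, with both resistant libraries higher. Another lincRNA, *AL392086.2*, shared 81 bases and had 0 and 0 counts in resistant cells and 0 and 2766 in wild type. All 30 of the 31-base words (31-mers) that no other reference transcript holds span the junction between exon 1 and exon 2. The gene sum of 0 in wild type thus sits beside wild-type counts on transcripts that hold its bases.

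Other genes with no count in wild type shared no base with transcripts counted there. *AL031599.1* ENST00000432694, a lincRNA of 5 exons, had 1259 and 1120 counts, and all of its 31-mers were its own. *SMC5-AS1* ENST00000594708, which lies antisense to the cohesin-related repair gene *SMC5*, had 1603 and 2165 counts and 93.1% unique 31-mers. Whether counting used strand is unknown, so reads of an overlapping gene could be among its counts. *LINC01399* ENST00000423311, classed as a transcribed processed pseudogene, had 1067 and 190 counts and 90.6% unique 31-mers. *EMBP1* ENST00000618253, a transcribed pseudogene, had 708 and 1003 counts but no 31-mer of its own, so its count cannot be told apart from that of the transcripts that share its sequence. Among all 1052, 361 or 34.3% had no exonic base in a matched transcript counted in wild type. Identifiers counted in wild type but not matched to the reference have no known exons and could not be included. At these settings this count and the next are therefore upper limits. For 143 of the 1052, or 13.6%, there was no base in an mRNA exon either. Of these 143, 68 were lincRNA and 49 antisense transcripts, with a median of 0.756 CPM.

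The other 740 transcripts were one product of a gene that wild-type cells also transcribed. In resistant cells their median share of the gene's counts was 13.4%. The share was over 50% for 144 of them and under 10% for 320. Summed over all transcripts, both resistant libraries were above both wild-type libraries in 302 of the 651 genes (46.4%, against 23.6% of all 17907 genes) and below them in 60 (9.22%, against 14.3%). Since the rule adds counts only to the resistant side, those shares are partly fixed by it. Over 13745 gene sums edgeR called 0 (0.0%, lowest adjusted p = 0.323), with 1192 at an unadjusted p under 0.05, and DESeq2 called 632, or 4.6%. With the resistant-only transcripts taken out, which can only lower the resistant side, the remaining sum was higher without overlap in 164 genes (25.2%, against 21.5% of all 17649 genes) and lower in 115 (17.7%, against 14.8%). The groups overlapped in the other 372. No remaining sum passed edgeR's test over 13513 genes (0 calls, 0.0%, lowest adjusted p = 0.539), with 925 at an unadjusted p under 0.05 and 450, or 3.33%, called by DESeq2.

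Among the 12 highest with a gene name, this mean share was over 50% in all but *RPL7A* (43.8%) and *CMAHP* (44.4%). The mean joins unlike libraries in 3 genes. *AP3S1* (51.1%) had 362 of 5245 gene counts in resistant replicate 1 and 102624 of 107755 in replicate 2. *RPL7A* had 59841 of 80160 and 5809 of 44899, and *CMAHP* 12324 of 14669 and 235 of 4905. *CCM2*, which encodes a scaffold protein of endothelial junction signalling, had 67721 and 31647 counts in resistant cells for ENST00000461377, 94.3% of the gene. Its other transcripts had 2315 and 2761 counts in resistant cells and 8105 and 5756 in wild type. *SDHB*, the iron-sulphur subunit of respiratory complex II, had 9098 and 9675 counts for ENST00000485515, and 4216 and 2419 counts on its other transcripts in resistant cells against 5547 and 6649 in wild type. For both genes the remaining transcripts were lower in both resistant libraries while the gene sum was higher. *PPARG*, the nuclear receptor gene of fat cell differentiation, has 2 matched transcripts in the table. ENST00000477039 had 5172 and 11750 counts in resistant cells, and the other had 134 and 154 in resistant cells against 3899 and 3073 in wild type. ENST00000477039 has no 31-mer of its own, and 88.1% of its bases lie in exons counted in wild type. *METTL16*, a gene of an RNA adenosine methyltransferase, had 9513 and 7370 counts for ENST00000571669. Its other transcripts had 1617 and 1953 counts in resistant cells and 1040 and 1607 in wild type, overlapping in CPM.

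In other genes of the 12 a single resistant library held most of the counts. *AP3S1*, a subunit gene of the AP-3 adaptor of vesicle transport, had 362 and 102624 counts for ENST00000395548, 279.7-fold apart in CPM. *RPL7A*, a ribosomal protein gene, had 59841 and 5809 for ENST00000468019, and *CMAHP*, the human remnant of a sialic acid hydroxylase gene, had 12324 and 235 for ENST00000643807. The gene sums of *RPL7A* overlapped between the groups, with 80160 and 44899 counts in resistant cells and 44110 and 47279 in wild type. *SELENOF*, described above, was 16.8-fold apart. The libraries were closer for the rest of the 12. *ZCCHC7*, a gene of nuclear RNA surveillance, had 27571 and 42673 counts for ENST00000461038, 81.4% of the gene. It has no 31-mer of its own, and its gene sums, 36099 and 49432 counts in resistant cells and 7342 and 29229 in wild type, overlapped in CPM. *EGFEM1P*, a pseudogene, had 4807 and 10118 for ENST00000502778, with gene sums that overlapped. *LINC00511* ENST00000648623 had 21180 and 30773 counts, 69.2% of the gene, and lay wholly in exons of transcripts counted in wild type. *LINC00511* ENST00000650131 had 0 counts in resistant cells and 12708 and 11254 in wild type, and neither transcript has a 31-mer of its own.

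**Figure D3:**
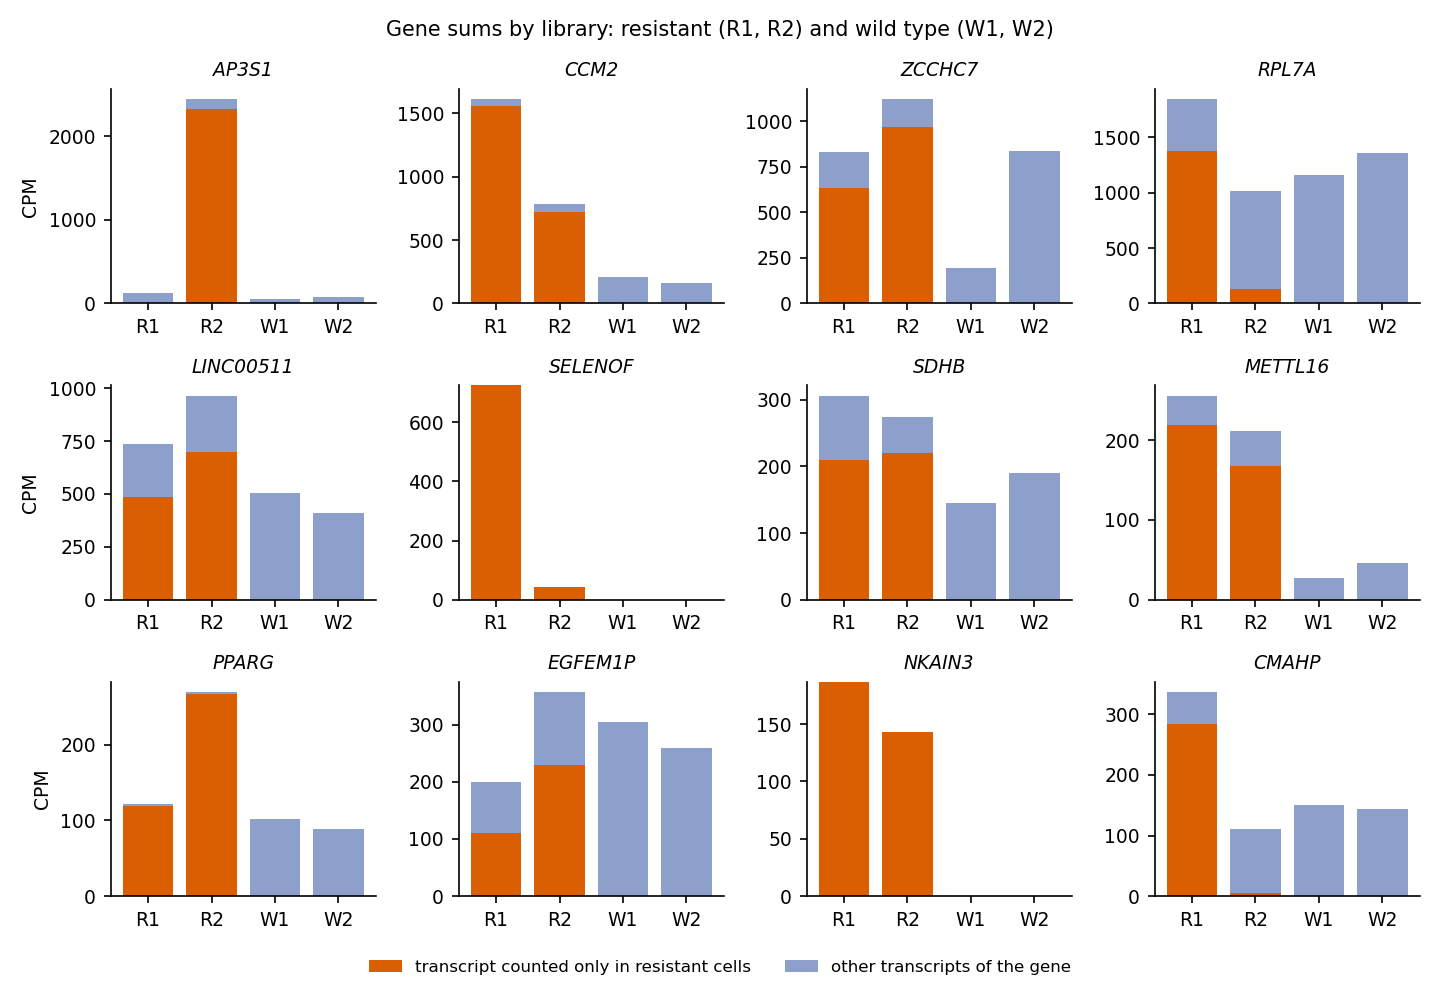
Gene sums in CPM for the 12 highest resistant-only transcripts with a gene name, in resistant replicates 1 and 2 (R1, R2) and wild-type replicates 1 and 2 (W1, W2), on a separate scale per gene. Orange is the resistant-only transcript, which is 0 in W1 and W2, and blue the gene's other matched transcripts in the table. *SELENOF* and *NKAIN3* have no blue part.

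A transcript counted only in resistant cells and another counted only in wild type occurred in the same gene 44 times, 4.63% of the genes with the first and 10% of the 440 genes with the second. Of all 12842 genes with a transcript above 0.1 CPM in both resistant libraries, 7.41% held a resistant-only transcript, which is near the 10%. No such share was computed for the 4.63%, and the joint occurrence was not tested. *LINC00511*, given above, is one of these genes. In *AL390729.1* these are its only matched transcripts in the table. ENST00000422022 had 5721 and 4093 counts in resistant cells and 0 in wild type, and ENST00000456651 had 0 in resistant cells and 2174 and 4571 in wild type. In CPM the gene sums of *AL390729.1* overlapped, and the printed windows differ by the 45-base exon shown above. *NRIP1*, a corepressor gene of nuclear receptors, also has 2 matched transcripts there. ENST00000637630 had 1624 and 607 counts in resistant cells, and ENST00000637963 had 2096 and 3653 in wild type. *WARS2*, the gene of mitochondrial tryptophanyl-tRNA synthetase, had 314 and 215 counts for ENST00000497402 in resistant cells, while ENST00000495746 had 2430 and 1579 in wild type and the gene sum was 354 and 282 in resistant cells against 2516 and 1622. In *PRH1* and *SLC37A3* the resistant-only transcript made up 1.16% and 7.32% of the gene.

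A median of 18.1% of the 31-mers of resistant-only transcripts occurred in no other reference transcript, against 28.8% for the other transcripts above 0.1 CPM in both resistant libraries. The median was 57.4% for the 312 with no gene count in wild type and 10.1% for the 740 whose gene was counted there. At least 50% of the 31-mers were unique in 26.8% of the resistant-only transcripts and in 28.1% of the others. In 189 of 1052, or 18.0%, such 31-mers existed only across junctions between exons, as in *AL392086.3* and *SDHB*, and in 171 only across 1 junction. Among the other 33170 transcripts 4.63% were of this kind. It was most frequent among the 740 whose gene was counted in wild type, at 21.6%, and less so among the 312 with no gene count, at 9.29%. Read the other way, 11.0% of the 1726 transcripts known only by junctions were resistant-only, against 2.55% of the 28388 with a distinctive stretch inside an exon and 3.36% of the 4108 with no unique 31-mer. At 0.1 to 1 CPM the first 2 shares were 14.8% and 4.76%, and above 10 CPM they were 5.71% and 1.10%. The order was also the same for transcripts of 2 to 3 exons, with 11.7% and 2.48%, and for those of 7 or more, with 10.4% and 3.03%. These are shares of annotated transcripts, which are not independent of each other, and they were not tested. Wild-type-only transcripts had a similar makeup: 72 of 462 with a reference gene, or 15.6%, had unique 31-mers only across junctions, against 4.4% of the other 31992 above 0.1 CPM in both wild-type libraries. The same direction was thus seen with the groups exchanged, and the 2 sets were not tested against each other.

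**Figure D4:**
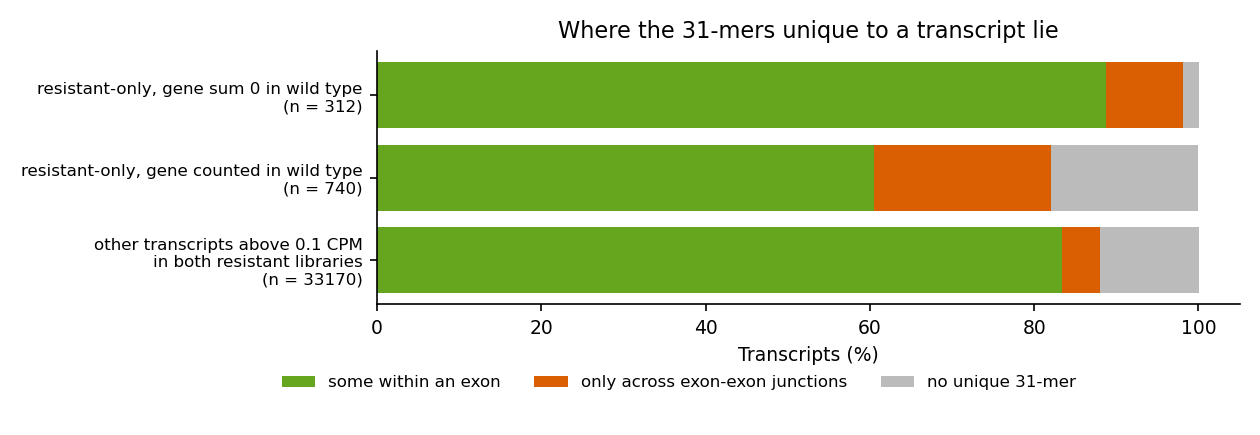
Percent of transcripts whose unique 31-mers (31-base words found in no other reference transcript, on either strand) include some within an exon (green), lie only across exon-exon junctions (orange) or do not exist (grey). The orange part is 9.29% for resistant-only transcripts of genes with a sum of 0 in wild type, 21.6% for those of genes counted in wild type and 4.63% for other transcripts.

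The median was 667 bases and 4 exons for resistant-only transcripts and 709 bases and 3 exons for the others, and transcripts of 1 exon were 0.856% and 5.22%. GENCODE's support level 1 or 2, the best supported, applied to 10.5% and 18.7% of the resistant-only transcripts and to 9.24% and 38.7% of the others.

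Of the 12842 genes with a transcript above 0.1 CPM in both resistant libraries, 7.41% held a resistant-only transcript, and gene lists are read against that share. In the list of platinum transport, glutathione and efflux, 4 of 23 genes did (17.4%). *GSS*, the glutathione synthetase gene, had 3938 and 5168 counts for ENST00000646512 in resistant cells, a transcript with no 31-mer of its own, and gene sums of 7438 and 5656 against 1394 and 1133 in wild type. *TXNRD1*, the thioredoxin reductase gene, had 99 and 197 counts for ENST00000526006. *KEAP1*, the gene of the NRF2 inhibitor, had 7 and 72 for ENST00000588024, and *ABCB1*, the gene of the efflux pump P-glycoprotein, had 5 and 5 for ENST00000496821. Counts of 5 and 7 lie near the 0.1 CPM threshold, as in *ADCY3* above, so the share of this list rests partly on transcripts at that edge. Without ENST00000646512 the *GSS* sum was 3500 and 488 in resistant cells against 1394 and 1133 in wild type, and the groups overlapped.

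In the list of DNA repair genes, 1 of 45 held one (2.22%): *MSH3*, a mismatch repair gene, with 165 and 270 counts for ENST00000512258 and gene sums of 265 and 357 in resistant cells against 81 and 106 in wild type. Its other transcript had 100 and 87 counts in resistant cells against the same 81 and 106, overlapping in CPM. Of 19 counted p53 target and apoptosis genes, *BCL2* had 15 and 10 counts for ENST00000590515, its only matched transcript in the table. Of 39 chromatin modifier genes 4 did (10.3%), among them *EZH2*, the Polycomb methyltransferase gene, with 787 and 631 for ENST00000498186 and 39 and 67 counts on its other transcript, against 20 and 29 in wild type. *EZH2* ENST00000498186 has no 31-mer of its own. *MEAF6*, a gene of histone acetyltransferase complexes, had 2683 and 2595 for ENST00000487788, 28.2% of the gene.

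Of 42 lncRNA genes reported in liver cancer or drug resistance 8 held one (19%). The 7.41% over all genes is not matched to this list in class or in number of transcripts per gene. By transcript the share was 7.08% for lincRNA genes and 2.27% for protein-coding genes. *LINC00511*, on this list, has 106 matched transcripts in the table. *CASC15* ENST00000444265 had 312 and 1910 counts, with gene sums of 3674 and 3981 in resistant cells against 1207 and 2669 in wild type. Without it the *CASC15* sum was 3362 and 2071 in resistant cells, and the groups overlapped in CPM. Of 44 genes of mitochondrial respiration and metabolism 6 did (13.6%), and besides *SDHB* the highest was *ATP5F1C*, an ATP synthase subunit gene, with 211 and 518 counts for ENST00000465936, 0.691% of the gene. Of 34 splicing factor genes 3 did (8.82%), with 185 and 289 counts for *HNRNPU* ENST00000638952 and 62 and 34 for *RBM5* ENST00000433556, each under 1% of the gene. Of 17 RNA methylation genes 2 did (11.8%): *METTL16*, given above, and *IGF2BP3*, an mRNA-binding protein gene, with 1422 and 602 for ENST00000466809. Of 43 ubiquitin and proteasome genes 2 did (4.65%). *UBXN2B* ENST00000522978 had 992 and 935 counts and no gene count in wild type, and *PSMC1*, a proteasome ATPase gene, had 76 and 36 for ENST00000557357. The lists of translation and protein folding gave 1 of 28 (3.57%) and 1 of 22 (4.55%), *EEF1D* ENST00000534232 with 276 and 120 counts and *TCP1* ENST00000543532 with 38 and 129. With so few genes per list, these shares describe the lists and were not tested.

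Among the other classes, the highest antisense transcripts after *SMC5-AS1* were *STXBP5-AS1* ENST00000367477, with 3254 and 424 counts, and *AC104123.1* ENST00000511775, with 1782 and 1567. The gene sum of *AC104123.1* was 1808 and 1567 in resistant cells and 0 and 6794 in wild type, so the groups overlapped. *GUSBP11*, a noncoding gene related to a glucuronidase, had 1624 and 1470 counts for ENST00000422506. Among transcribed unprocessed pseudogenes, *EMBP1* was followed by *RNF216P1* ENST00000403969 with 162 and 1315 counts and *CCDC144B* ENST00000445752 with 987 and 29. Among transcribed processed pseudogenes, *LINC01399* was followed by *CENPBD1P1* ENST00000487264 with 888 and 316 and *DUXAP10* ENST00000549065 with 185 and 797. *RNF216P1* and *DUXAP10* had no 31-mer of their own here, and whether these are shared with other transcripts of the gene or with other loci was not tested.

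Without a gene name, the Ensembl identifiers ENST00000660405, with 13255 and 8801 counts, and ENST00000657441, with 7222 and 11760, were the highest, and their resistant libraries were 1.53-fold and 1.61-fold apart. Of the assembled transcripts, TCONS_00289721 had 26517 and 3060 counts and TCONS_00363201 had 2376 and 5541. Sequence and position of these identifiers were not analysed here.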

How the data were processed

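RNA-seq of 4 libraries was deposited by the authors as 1 table, whose whole-number values are estimated counts of reads per transcript. The labels' protocols give 2 µg of total RNA and paired-end 150-base Illumina reads. The submitters' processing notes list the build mm9, a mouse assembly, whereas the identifiers are human. Not given in the sources used here: aligner, counter, annotation release and use of strand. Of 103347 Ensembl identifiers, 84072 matched GENCODE release 29 (GRCh38), the source of genes, classes, exons and sequences; 19275 did not, nor did 2832 assembled transcripts. The build behind the counts is thus unknown, and coordinates are GENCODE's.

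Transcripts were chosen by CPM from column totals, threshold 0.1. Members, gene lists and the rule for named transcripts (highest CPM overall and per class, list or category) were chosen with earlier results of these data known. Exon overlap used bedtools 2.31.1, either strand. Unique 31-mers were counted against all GENCODE transcripts on both strands. The counts were tested with edgeR 4.0.16 (R 4.3.3; quasi-likelihood, TMM, minimum count of 10, Benjamini-Hochberg, threshold 0.05), with DESeq2 1.42.0 as an alternative. Scripts were tested on simulated data. Older list names were matched through RefSeq synonyms. With 2 libraries against 2 the smallest exact two-sided permutation p is 0.333, so none is given. Some genes and sequences are not reported here.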

Additional observations from a re-analysis of the deposited data

How the results depend on the processing

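The number of resistant-only transcripts, 1293, came to 1639 when up to 3 counts were allowed in each wild-type library, to 1293 with TMM-scaled CPM and to 617 at a threshold of 1 CPM. When 1 library was left out and the other of its group alone met the rule, it was 2699 to 3452. Of the transcripts, 312 had a gene sum of 0 in wild type; this was 115 at 1 CPM, 402 with up to 3 counts and 615 to 932 without 1 library. The 361 with no exonic base in a matched transcript counted in wild type came to 131 at 1 CPM and 395 on the same strand. They came to 467 with up to 3 counts and 711 to 1035 without 1 library. Leaving out a library loosens the rule by construction.

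edgeR called 0 transcripts, 0 gene sums and 0 gene sums without resistant-only transcripts, also with DESeq2 size factors, without the expression filter, with a replicate block, and without each library in turn (0 to 0). DESeq2 called 2261, 632 and 450. Gene sums gave 1192 at an unadjusted p under 0.05 in edgeR. Libraries with the same number shared only the number (correlation of their deviations from the group means, 0.008), and under the block 1961 transcripts had an unadjusted p under 0.05. A common dispersion of 0.941 for transcripts limits what 2 libraries per group can show.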
